A study of Mus musculus with 6 samples.

Results

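P2+CD4+ T cells whose T cell receptor (TCR) was seen in a single cell of their library were compared between AireGW/+ Lyn-/- mice with and without uveitis. A cell entered the comparison when it had a productive TRA contig, which encodes the TCRα chain, and a productive TRB contig, which encodes the TCRβ chain. Cells were selected on clonotype size: a cell was kept when no further cell of its library matched it in the V genes, the J genes and the CDR3 bases of both chains. Of 970 cells with a paired TCR, 621 were unexpanded in this sense. They were 125 of 176 cells in uveitis dataset 1, or 71.0%, and 106 of 324 in uveitis dataset 2, or 32.7%. Without uveitis they were 390 of 470, or 83.0%. These shares follow from the rule that chose the cells and are given as a description only. Just outside the rule were 7, 16 and 10 clonotypes of 2 cells in these datasets, and just inside it were the clonotypes of 1 cell described here. A cell is called unexpanded when no sister cell was sampled, so the class also depends on how many cells were sequenced.

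The cells came from lymph nodes (LN) of 9-wk-old mice, were enriched with magnetic beads and sorted for binding of a tetramer of the MHC class II molecule I-Ab with the P2 peptide, and were sequenced in droplets with a 5′ single-cell kit. All groups carried the same genotype, AireGW/+ Lyn-/-, with a dominant-negative Aire mutation on 1 chromosome and no functional Lyn, so no group had intact Aire and Lyn. Each library pooled several mice, so the 2 uveitis datasets are 2 pools and the group without uveitis is 1 pool. Per the paper, the pool without uveitis held more mice than either uveitis pool. The part of this in the results was not tested. No test was run between the conditions, since a two-sided exact permutation of 2 pools against 1 cannot give a p below 0.333. The mRNA libraries were not analysed here, so CD4 and other markers of the sorted cells were not checked. Ranges in parentheses are exact (Clopper-Pearson) 95% binomial intervals, and they cover counting error only, not differences between mice.

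Each developing T cell joins V and J segments for TCRα, and V, D and J segments for TCRβ, and trims and adds bases at the joints. The joint lies in CDR3, the loop that reads mostly the peptide, whereas the V gene fixes the loops that mainly contact the MHC molecule. P2 is a peptide of interphotoreceptor retinoid-binding protein (IRBP), a retinal protein whose expression in the thymus depends on Aire. Lyn is a tyrosine kinase that restrains signalling in B cells and myeloid cells.

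TRAV9 family genes joined to TRAJ31 made the most frequent pair of a TRAV family and a TRAJ gene, so CDR3α of this pair are shown first. The lines hold only some of those from the uveitis datasets, but all of those without uveitis. In each line the bases in lower case match the germline V gene at the 5′ end or the germline J gene at the 3′ end, and the capitals in between match neither.
Dataset 1, TRAV9-4, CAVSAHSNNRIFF: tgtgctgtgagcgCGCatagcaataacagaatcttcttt
Dataset 1, TRAV9-4, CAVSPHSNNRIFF: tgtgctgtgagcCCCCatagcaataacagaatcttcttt
Dataset 1, TRAV9-1, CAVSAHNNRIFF: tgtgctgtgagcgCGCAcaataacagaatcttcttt
Dataset 2, TRAV9-1, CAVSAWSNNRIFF: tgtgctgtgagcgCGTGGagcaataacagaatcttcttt
Dataset 2, TRAV9-4, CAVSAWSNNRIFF: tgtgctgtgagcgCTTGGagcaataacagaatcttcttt
Dataset 2, TRAV9-1, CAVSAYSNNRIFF: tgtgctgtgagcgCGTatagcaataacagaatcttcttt
Dataset 2, TRAV9-2, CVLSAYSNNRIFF: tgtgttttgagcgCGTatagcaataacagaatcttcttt
No uveitis, TRAV9-1, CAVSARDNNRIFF: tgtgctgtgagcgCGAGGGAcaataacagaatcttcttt
No uveitis, TRAV9-1, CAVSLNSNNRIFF: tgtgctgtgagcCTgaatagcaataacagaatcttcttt
No uveitis, TRAV9N-4, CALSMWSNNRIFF: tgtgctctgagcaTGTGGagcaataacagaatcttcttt
TRAV9-1 and TRAV9-4 start the CDR3 with the same bases, so the names of these genes rest on the rest of the V segment. The genes lie on chromosome 14 of GRCm38 on the plus strand, TRAV9-1 at chr14:53488045-53488567, TRAV9-2 at chr14:53590857-53591514, TRAV9-4 at chr14:53676141-53676630, TRAV9N-4 at chr14:53294341-53295030 and TRAJ31 at chr14:54187895-54187951.

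The TRA of the unexpanded cells rested on a median of 5, 4 and 8 unique molecular identifiers (UMIs, each marking 1 RNA molecule) in dataset 1, dataset 2 and without uveitis, and the TRB on 11, 9.5 and 16. Further values given in threes follow the same order. The TRA rested on 1 UMI in 12, 8.49 and 3.08% of them. More than 1 productive TRB was present in 7.20, 3.77 and 4.10%. No cell barcode belonged to an unexpanded cell in more than 1 library. Among all cells with a paired TCR, 1 barcode was in both dataset 2 and the dataset without uveitis. Neither productive TRG or TRD contigs nor the invariant TCRα chains typical of iNKT cells (TRAV11 family with TRAJ18) or of MAIT cells (TRAV1 joined to TRAJ33) were seen, and a count of 0 cells limits their shares to 2.40, 2.83 and 0.769%. Depth and condition move together here, and the part of depth in the results was not tested beyond the values given.

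TRAV9 was the most used TRAV family among unexpanded cells with uveitis and stood behind the TRAV7, TRAV6, TRAV14 and TRAV13 families without it. Dataset 1 had 29 TRAV9 cells, a share of 23.2% (16.1 to 31.6%), and dataset 2 had 28, a share of 26.4% (18.3 to 35.9%). Without uveitis there were 36, a share of 9.23% (6.55 to 12.6%). The uveitis datasets lay close together, with a mean of 24.8% ± 2.27 (SD, n = 2 pools), and neither interval overlapped the one without uveitis. The combined share was 24.7% (19.3 to 30.8%), 2.67-fold higher than without uveitis. Among cells with at least 5 UMIs of TRA, TRAV9 took 22.7, 23.1 and 7.85%. Among cells with 2 to 4 UMIs it took 22.7, 24.4 and 14.1%, with combined intervals that overlapped (15.2 to 33.8% with uveitis and 7.51 to 23.4% without). Among the few cells with 1 UMI it was in 4 of 15, 5 of 9 and 1 of 12.

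A family or gene was called higher or lower when both uveitis datasets were at least 2-fold above or below the dataset without uveitis, among those with at least 10 cells in all. Of 11 TRAV families tested, 2 were called (18.2%), TRAV9 as higher (9.09%) and TRAV13 as lower (9.09%). TRAV13 took 4.0% of cells in dataset 1, 4.72% in dataset 2 and 10.3% without uveitis, and the combined 4.33% (2.10 to 7.82%) came close to the 7.43 to 13.7% without uveitis, with intervals that just overlapped. TRAV7, the most used family without uveitis at 16.9% (13.3 to 21%), was at 7.20% in dataset 1 and 9.43% in dataset 2. It was 2.35-fold and 1.79-fold lower, so it missed the call, but the combined interval of 5.02 to 12.5% lay below that without uveitis.

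A larger TRAV9 share leaves less for every other family, so the families were also counted among cells without TRAV9. There, TRAV13 took 5.75% of cells with uveitis (2.79 to 10.3%) against 11.3% without (8.20 to 15.1%), and TRAV7 took 10.9% (6.70 to 16.5%) against 18.6% (14.7 to 23.1%). Both were lower, and both pairs of intervals overlapped. TRAV12 took 16.7% (11.5 to 23.1%) against 10.2% (7.22 to 13.8%). TRAV6 took 14.4% against 16.4%, and TRAV14 took 9.20% against 11.9%. None of these 5 families had separate intervals on this basis.

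**Figure D1:**
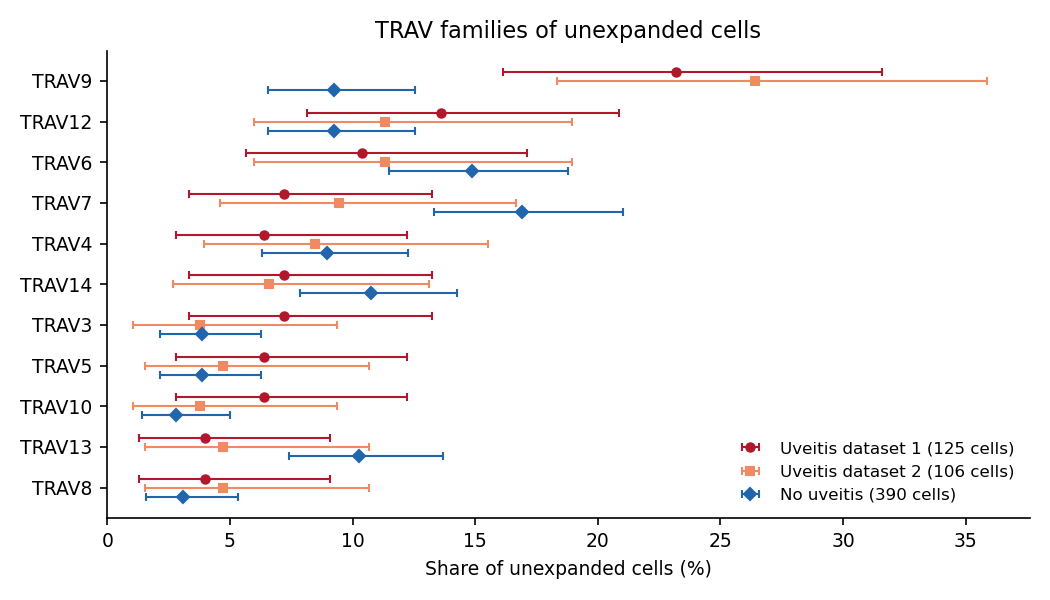
Share of unexpanded cells (%) using each TRAV family with at least 10 cells, for uveitis dataset 1, uveitis dataset 2 and the dataset without uveitis. Points are shares and lines exact 95% binomial intervals. TRAV9 lies at 23.2 and 26.4% with uveitis against 9.23% without, and TRAV7 and TRAV13 lie on the opposite side.

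Within the TRAV9 family, TRAV9-1 had the separate intervals. Much of the TRAV locus is present in near-identical copies marked D or N, and here TRAV9-1 includes the copy TRAV9D-1 (chr14:52792316-52792777), because reads of such copies are hard to tell apart. It was used by 14 cells of dataset 1 (11.2%, 6.26 to 18.1%), 19 cells of dataset 2 (17.9%, 11.2 to 26.6%) and 10 cells without uveitis (2.56%, 1.24 to 4.66%). These are 4.37-fold and 6.99-fold higher shares, with intervals apart from that without uveitis. The other TRAV9 genes together took 12, 8.49 and 6.67%, and these intervals overlapped. Without merging, 4 of 22 genes were called (18.2%), with TRAV9-1 (10, 14 and 9 cells) and TRAV9D-1 (4, 5 and 1 cells) both higher (9.09%) and TRAV7D-2 and TRAV13D-2 lower (9.09%). All 4 had most of their cells in the condition where they are high and under 10 in the other, which the filter favours. TRAV9-4 went from 3.33% without uveitis to 7.20% in dataset 1 but 2.83% in dataset 2.

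With the copies merged, 5 of 23 TRAV genes were called (21.7%), of which TRAV9-1 alone was higher (4.35%) and 4 were lower (17.4%). The lower genes were TRAV13-1 (chr14:53545014-53545525), TRAV7-4 (chr14:53461099-53461738), TRAV7-2 and TRAV7-6. TRAV13-1 was found in 3, 2 and 22 cells, or 2.40, 1.89 and 5.64%. TRAV7-4 was found in 2, 2 and 21 cells, or 1.60, 1.89 and 5.38%. TRAV7-2 was in 2, 1 and 17 cells and TRAV7-6 in 1, 1 and 10 cells. All 4 reached the minimum of 10 cells only through the cells without uveitis, where they are high, so the filter favoured these calls and their number is no support for a lower use. They rest on 1 to 3 cells in each uveitis dataset, and the intervals of all 4 genes in both datasets overlapped those without uveitis. The other 21 of 44 TRAV genes had too few cells for a call. The genes used most were TRAV9-1, TRAV3-3, TRAV9-4 and TRAV12-3 in dataset 1, the last 3 with 9 cells each. They were TRAV9-1, TRAV12-2 (10 cells) and TRAV4-4 (9 cells) in dataset 2, and TRAV4-4 (24 cells), TRAV13-1 and TRAV7-4 without uveitis.

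Among TRAJ genes, 3 of 30 were called (10.0%), with TRAJ31 higher (3.33%) and TRAJ27 and TRAJ48 lower (6.67%). TRAJ31 was used by 12 cells of dataset 1 and 10 cells of dataset 2, or 9.60% and 9.43%, against 18 cells or 4.62% without uveitis. The uveitis datasets differed little, but each lay only just past the 2-fold limit and overlapped the interval without uveitis. TRAJ27 (chr14:54192303-54192361) was used by 1, 1 and 15 cells, and TRAJ48 (chr14:54169808-54169868) by 1, 1 and 11 cells. Both passed the minimum only through the cells without uveitis, so the filter favoured their calls. TRAJ37 and TRAJ23, among the most used without uveitis at 5.64 and 5.38%, took 5.19% of the combined uveitis cells each. TRAJ22 was next after TRAJ31 in combined use with uveitis, with 8 and 5 cells, against 11 without, or 6.40, 4.72 and 2.82%. Along the locus, the 15 TRAJ genes nearest the TRAV genes (TRAJ58 to TRAJ39) took 24.8, 29.2 and 31% of cells, the 14 in the middle (TRAJ38 to TRAJ22) took 44, 43.4 and 42.1%, and the last 14 (TRAJ21 to TRAJ2) took 31.2, 27.4 and 26.9%, with overlapping intervals throughout.

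TRAJ31 was higher in the cells that joined it to TRAV9. This was the only pair of a TRAV family and a TRAJ gene with 10 cells (1 tested, 100% called), and it reached that number through the uveitis cells, so its call was favoured by the filter and is given as a description. TRAV9 with TRAJ31 was found in 7 cells of dataset 1 (5.60%, 2.28 to 11.2%), 7 cells of dataset 2 (6.60%, 2.70 to 13.1%) and 3 cells without uveitis (0.769%, 0.159 to 2.23%). Each uveitis interval lay above the one without uveitis, by a small margin in dataset 1, and the combined 6.06% (3.35 to 9.96%) was 7.88-fold higher. TRAJ31 joined to another TRAV family was found in 5, 3 and 15 cells, or 4.0, 2.83 and 3.85%. TRAV9 joined to another TRAJ gene was found in 22, 21 and 33 cells, or 17.6% (11.4 to 25.4%), 19.8% (12.7 to 28.7%) and 8.46% (5.90 to 11.7%). For TRAV9 with other TRAJ genes, dataset 2 and the combined 18.6% (13.8 to 24.2%) lay above the interval without uveitis, and dataset 1 just overlapped it. The intervals for TRAJ31 with other families overlapped. Among TRAV9 cells, TRAJ31 took 24.1, 25.0 and 8.33%.

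**Figure D2:**
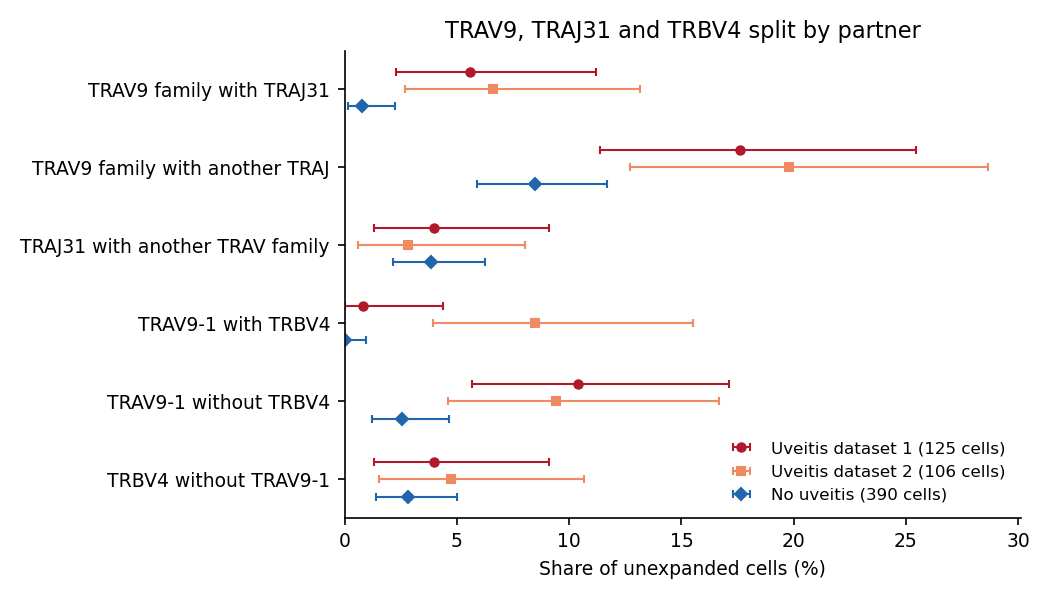
Share of unexpanded cells (%) with TRAV9, TRAJ31 and TRBV4 split by the partner gene, for the 3 datasets, with exact 95% binomial intervals. TRAV9 lies higher with uveitis both with TRAJ31 (6.06 against 0.769%) and with other TRAJ genes (18.6 against 8.46%), and TRAV9-1 with TRBV4 stands out in dataset 2 only.

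The TRAV9-TRAJ31 cells, which by the rule differ in clonotype within a library, held 5, 5 and 3 different CDR3α amino acid sequences and 4, 4 and 3 different TRBV genes. All of them ended in NNRIFF, which TRAJ31 encodes, and 5, 7 and 3 had a CDR3α of 13 residues. Residue 6, counted from the conserved cysteine as 1, was tryptophan, histidine or tyrosine in 5 of 7, 6 of 7 and 1 of 3 cells. This feature was noticed after the sequences were seen, and every uveitis line printed above has it, so those lines overstate it. The uveitis cells without it held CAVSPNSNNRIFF and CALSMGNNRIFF in dataset 1 and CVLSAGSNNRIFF in dataset 2. One of the dataset 1 cells, with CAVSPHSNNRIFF, is listed under TRAV9-2. Its CDR3α departs from the start seen in other TRAV9-2 cells within the first 5 bases, so its V name is uncertain. The CDR3α or CDR3β of an expanded clonotype of the same library was present in 3, 3 and 0 of these cells.

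Expanded clonotypes, each counted once, give the level of TRAV9 on the other side of the rule. TRAV9 was used by 5 of 13 of them in dataset 1 (38.5%, 13.9 to 68.4%), 14 of 36 in dataset 2 (38.9%, 23.1 to 56.5%) and 7 of 21 without uveitis (33.3%, 14.6 to 57.0%). Without uveitis the unexpanded cells, at 9.23%, lay below the interval of the expanded clonotypes. In the uveitis datasets the intervals of unexpanded cells and expanded clonotypes overlapped. Among expanded clonotypes the intervals of all 3 datasets overlapped, and whether the conditions differ less there than among unexpanded cells was not tested. TRAV9 was also in 3, 7 and 3 of the clonotypes of 2 cells just outside the rule.

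No TRBV gene was called (0 of 14), and neither was any of the 12 TRBJ genes. TRBV13-2 was the most used TRBV gene in dataset 1 and without uveitis, with 21, 13 and 45 cells, or 16.8, 12.3 and 11.5%. TRBV3, first in dataset 2, took 10.4, 15.1 and 9.74%, TRBV20 took 9.60, 8.49 and 5.64%, and TRBV31, the inverted gene downstream of the TRBJ clusters, took 3.20, 5.66 and 6.15%. The TRBV13 family took 26.4, 20.8 and 20.5% and the TRBV12 family 2.40, 0 and 3.33%, where 0 of 106 cells allows up to 2.83%. All of these intervals overlapped between the conditions. TRBV26 was missing from dataset 1, where 0 of 125 cells allows up to 2.40%, but took 7.55% in dataset 2 and 6.67% without uveitis. TRBV4 (chr6:41059394-41059886) was used by 14 cells of dataset 2, or 13.2% (7.41 to 21.2%), by 6 cells of dataset 1, or 4.80% (1.78 to 10.2%), and by 11 cells without uveitis, or 2.82% (1.42 to 4.99%). Dataset 2 alone stood apart, and dataset 1 lay nearer to the cells without uveitis than to dataset 2.

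In dataset 2 the extra TRBV4 cells were those that also used TRAV9-1. TRAV9-1 with TRBV4 was found in 1 cell of dataset 1, 9 cells of dataset 2 (8.49%, 3.96 to 15.5%) and 0 of 390 cells without uveitis, which allows up to 0.769%. Of 359 TRAV-TRBV pairs it was the only one with 10 cells, and it was not called (0 of 1). It reached that number only through the uveitis cells, so it is given as a description. TRBV4 without TRAV9-1 took 4.0, 4.72 and 2.82%. TRAV9-1 without TRBV4 took 10.4% (5.65 to 17.1%), 9.43% (4.62 to 16.7%) and 2.56% (1.24 to 4.66%), so the TRAV9-1 difference was present in both uveitis datasets without these cells, by a margin too small for separate intervals in dataset 2. The 9 cells used 6 TRAJ genes and 5 TRBJ genes and held 8 different CDR3α and 8 different CDR3β. Their CDR3β varied in the middle, as 3 of them show, with capitals for bases that match neither germline TRBV4 nor TRBJ.
Dataset 2, TRBJ2-7: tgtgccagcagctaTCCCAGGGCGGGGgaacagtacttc
Dataset 2, TRBJ2-2: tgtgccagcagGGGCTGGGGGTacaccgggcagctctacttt
Dataset 2, TRBJ2-5: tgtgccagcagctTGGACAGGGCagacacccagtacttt
The next most frequent pair of a TRAV and a TRBV gene, TRAV9-1 with TRBV13-2, was found in 5, 3 and 1 cells.

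The TRBJ genes form 2 clusters, each behind its own D gene and in front of its own constant gene, and the second cluster was used more with uveitis. TRBJ2 genes were in 96 cells of dataset 1 (76.8%, 68.4 to 83.9%), 80 cells of dataset 2 (75.5%, 66.2 to 83.3%) and 250 cells without uveitis (64.1%, 59.1 to 68.9%). The mean with uveitis was 76.1% ± 0.939 (SD, n = 2 pools), and the combined 76.2% (70.2 to 81.5%) had an interval above that without uveitis, while each dataset alone overlapped it. Of the single genes, TRBJ2-7 took 24.0, 21.7 and 18.2%, TRBJ2-1 took 13.6, 16 and 10.5%, and TRBJ2-5 took 22.4, 13.2 and 15.4%. TRBJ1-4 was at 4.80, 4.72 and 8.72% and TRBJ1-1 at 5.60, 10.4 and 9.74%. TRBJ2-4 ran against its cluster, at 4.80, 5.66 and 8.72%, and in the combined shares the other TRBJ2 genes were higher and all TRBJ1 genes lower with uveitis. TRBJ1-6 was in 1, 0 and 11 cells, or 0.800, 0 and 2.82%, and was not called because 0 of 106 cells allows up to 2.83%.

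The cluster difference was also seen among TRAV9 cells. With uveitis, 49 of 57 TRAV9 cells used TRBJ2 (86.0%, 74.2 to 93.7%), against 22 of 36 without (61.1%, 43.5 to 76.9%). Among cells of other families the shares were 73.0% (65.7 to 79.4%) and 64.4% (59.2 to 69.4%). The intervals overlapped in both classes of cells, and whether the difference was larger among TRAV9 cells was not tested. TRBV3 and TRBV13-2 were at 19.3 and 14.0% of TRAV9 cells with uveitis and at 11.1% each without, on 4 cells each.

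**Figure D3:**
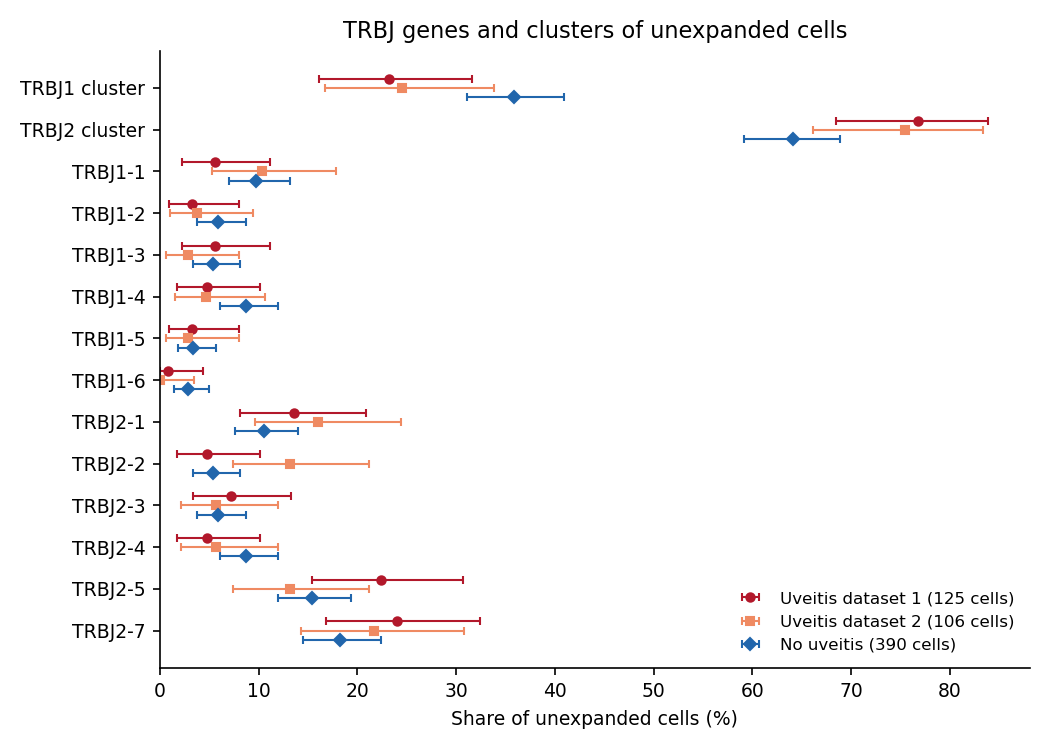
Share of unexpanded cells (%) using the TRBJ1 and TRBJ2 clusters and each TRBJ gene, for the 3 datasets, with exact 95% binomial intervals. The TRBJ2 cluster is at 76.8 and 75.5% with uveitis against 64.1% without, and no single TRBJ gene was called.

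Pairs of V and J genes were too spread out for most comparisons. The unexpanded cells used 447 TRAV-TRAJ pairs, none with 10 cells, and 179 TRBV-TRBJ pairs, of which 9 had 10 cells and none was called (0 of 9). The most frequent TRAV-TRAJ pairs were TRAV9-1 with TRAJ31, in 2, 3 and 2 cells, and TRAV9-4 with TRAJ31, in 4, 2 and 1 cells. The most frequent TRBV-TRBJ pairs were TRBV13-2 with TRBJ2-7, in 7, 3 and 7 cells, and TRBV3 with TRBJ2-7 and TRBV13-2 with TRBJ2-1, in 2, 7 and 7 and in 4, 3 and 9 cells. TRBV19 with TRBJ2-7 was in 0, 0 and 10 cells, where 0 cells allow up to 2.40 and 2.83% in the single datasets and up to 1.30% in the 231 combined cells, against 2.56% (1.24 to 4.66%) without uveitis.

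The mean CDR3α length was close in all 3 datasets. It was 13.4 residues in dataset 1, 13.6 in dataset 2 and 13.5 without uveitis, and the combined difference of -0.03 residues was smaller than the SD of 0.12 between the uveitis pools. A CDR3α of 13 residues was found in 48 cells of dataset 1 (38.4%, 29.8 to 47.5%), 40 cells of dataset 2 (37.7%, 28.5 to 47.7%) and 108 cells without uveitis (27.7%, 23.3 to 32.4%), with overlapping intervals for the single and the combined datasets (38.1%, 31.8 to 44.7%). TRAV9 cells had this length in 55.2, 42.9 and 27.8%, and cells of other families in 33.3, 35.9 and 27.7%. The most frequent length without uveitis was 14 residues, at 31.8%, which took 27.2 and 29.2% with uveitis.

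CDR3β differed as much between the uveitis datasets as between conditions. The mean length was 14.2 residues in dataset 1, 13.7 in dataset 2 and 13.7 without uveitis. A CDR3β of 16 residues was found in 17.6% of dataset 1 (11.4 to 25.4%), 8.49% of dataset 2 (3.96 to 15.5%) and 6.92% without uveitis (4.61 to 9.91%). Only dataset 1 lay above. Lengths of 15 residues or more took 40.8, 29.2 and 31.5%.

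**Figure D4:**
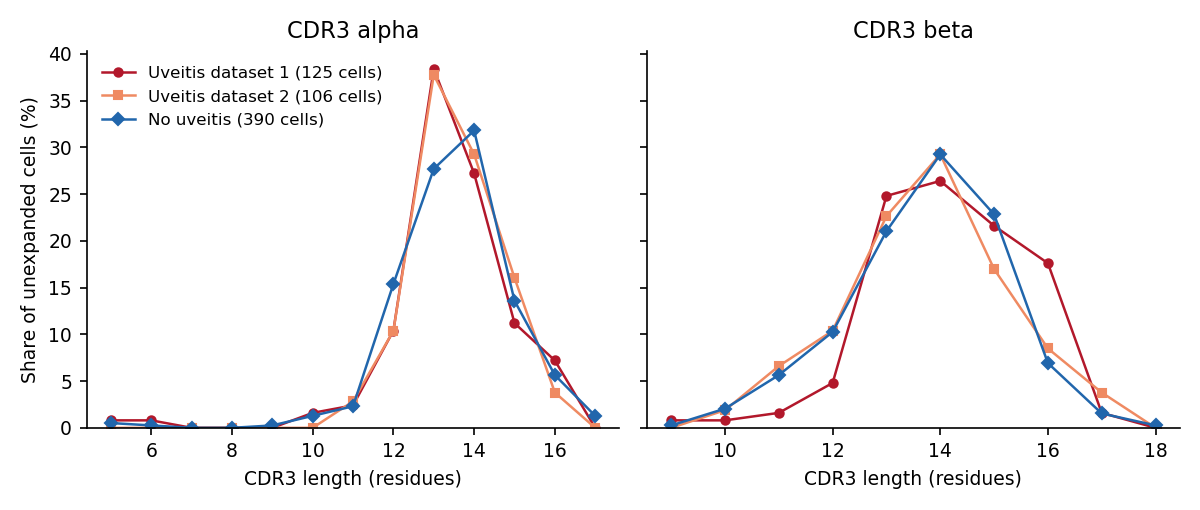
Share of unexpanded cells (%) at each CDR3 length in residues, for CDR3α (left) and CDR3β (right) in the 3 datasets. The peak of CDR3α is at 13 residues in both uveitis datasets (38.4 and 37.7%) and at 14 without uveitis (31.8%), and the CDR3β of dataset 1 has an excess at 16 residues (17.6%).

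Residues were counted in the middle of each CDR3, without its first 4 and last 4 residues, which come mostly from the V and J genes. In the CDR3β middle, serine was found in 37 cells of dataset 1 (29.6%, 21.8 to 38.4%), 19 cells of dataset 2 (17.9%, 11.2 to 26.6%) and 142 cells without uveitis (36.4%, 31.6 to 41.4%). The combined 24.2% (18.9 to 30.3%) lay below the interval without uveitis, dataset 2 alone did so too, and dataset 1 did not. With 3 residues removed from each end in place of 4, the difference of -12.2 percentage points turned to 2.65, so its sign depends on the cut. The shorter cut also counts residue 4, a serine that matches the germline V gene in CDR3β such as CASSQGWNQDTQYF. It therefore cannot decide the sign for the inner residues alone. Leucine ran the other way, at 31.2, 38.7 and 27.2% of cells, with overlapping intervals.

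Acidic residues (D or E) made up 13.7, 11.2 and 14.2% of the middle residues and were present in 67.2, 46.2 and 65.1% of cells, where dataset 2 lay below the cells without uveitis and dataset 1 overlapped them. Basic residues (K or R) were present in 30.4, 31.1 and 27.7% of cells. Glycine, the most frequent residue of the middle and encoded by TRBD genes, made up 24.7, 25.9 and 22.7% of it. Cysteine, which is counted as a mark of strongly self-reactive TCRs in the thymus, was in 0 cells for both chains.

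In the CDR3α middle, asparagine was present in 58.4% of dataset 1 (49.2 to 67.1%), 67.9% of dataset 2 (58.2 to 76.7%) and 73.1% without uveitis (68.4 to 77.4%). Dataset 1 lay below the interval without uveitis and dataset 2 overlapped it. Tryptophan was in 10, 11 and 16 cells, or 8.0% (3.90 to 14.2%), 10.4% (5.30 to 17.8%) and 4.10% (2.36 to 6.58%). These intervals overlapped. TRAJ22, used by 8, 5 and 11 cells, encodes a tryptophan that lies in the middle, as in the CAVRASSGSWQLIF sequences below. How many of the tryptophan cells used TRAJ22 was not counted. In dataset 2, 8 of the 11 were TRAV9 cells, as in the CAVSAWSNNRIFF sequences above, against 2 of 10 in dataset 1. Outside TRAV9, tryptophan was in 8.33, 3.85 and 3.95% of cells.

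The bases that match neither the V nor the J germline numbered a mean of 3.75 in TCRα of dataset 1, 2.82 in dataset 2 and 2.97 without uveitis. The uveitis datasets lay on opposite sides of the dataset without uveitis. TCRα with none of these bases made up 10.4, 8.49 and 14.1% of cells, with overlapping intervals. For TCRβ, where this stretch includes the D gene, the means were 10.5, 10.2 and 9.55 bases. The uveitis datasets were 0.979 and 0.621 bases above the dataset without uveitis and lay closer to each other than to it. The SD between cells of a dataset was 3.98 to 4.73 bases.

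Unexpanded cells with uveitis more often held a chain that was also found elsewhere in their library. The same TRA, by V gene, J gene and CDR3 nucleotides, was in at least 1 other cell for 16 cells of dataset 1 (12.8%, 7.50 to 20%), 10 cells of dataset 2 (9.43%, 4.62 to 16.7%) and 5 cells without uveitis (1.28%, 0.418 to 2.97%). The same TRB was in another cell for 45 cells of dataset 1 (36.0%, 27.6 to 45.1%), 17 of dataset 2 (16%, 9.63 to 24.4%) and 32 without uveitis (8.21%, 5.68 to 11.4%). For TRA both uveitis intervals lay above the one without uveitis, and for TRB that of dataset 1 did so. The dataset without uveitis had the most cells in which to find a match, but its cells also came from the most mice. The part of the number of mice in the sharing was not tested. In dataset 1, 17 TRB chains recurred in 40 unexpanded cells, each in at most 3 of them. The rule makes their TRA differ in V gene name, J gene or CDR3 bases. The unexpanded cells held 117, 104 and 388 different TRA, but 109, 103 and 387 different CDR3α nucleotide sequences. Cells with a shared chain had a median of 11, 9 and 26 UMIs of TRB, and cells without had 10, 10 and 15. Droplets with more than 1 cell were not removed, and their part in the shared chains was not tested.

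Some of these cells held a CDR3 of an expanded clonotype. The CDR3α nucleotides of an expanded clonotype of the same library were in 10 cells of dataset 1 (8.0%, 3.90 to 14.2%), 7 cells of dataset 2 (6.60%, 2.70 to 13.1%) and 3 cells without uveitis (0.769%, 0.159 to 2.23%). For CDR3β these were 10 (8.0%), 9 (8.49%) and 8 cells (2.05%, 0.890 to 4.0%). The CDR3α intervals lay apart between the conditions in both datasets, with 13, 36 and 21 expanded clonotypes to match. The CDR3β intervals, 3.90 to 14.2% in dataset 1 and 3.96 to 15.5% in dataset 2, only just overlapped the one without uveitis. Both chains matched expanded clonotypes in 1, 3 and 1 cells. When all cells with either match were left out, 106, 93 and 380 cells remained, and the TRAV9 share was still 14.4 percentage points higher with uveitis, but TRAJ31 was no longer called. When every cell sharing a chain was left out, the TRAV9 difference was 12.5 points, TRAV9-1 was still called, and TRAJ31 was not.

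**Figure D5:**
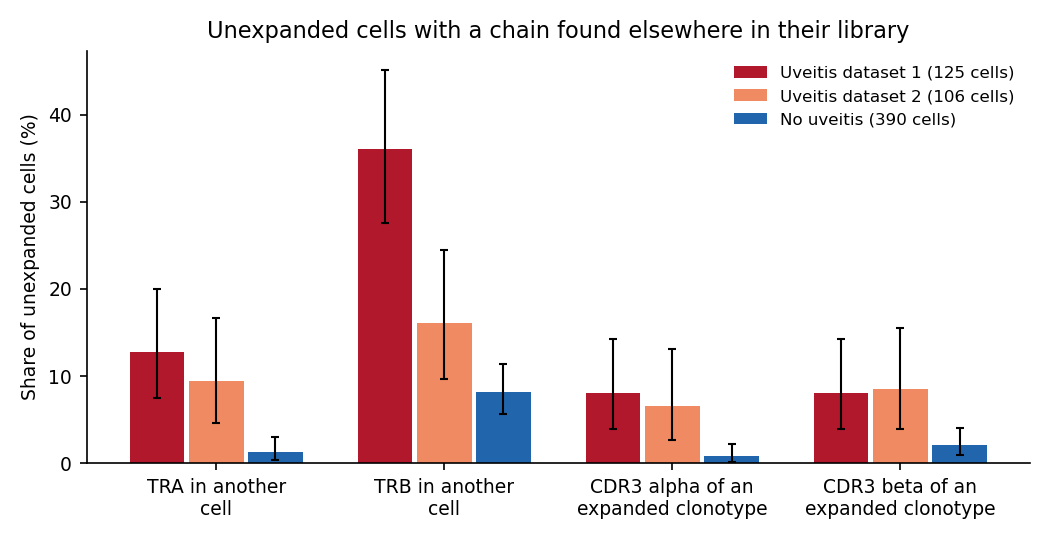
Share of unexpanded cells (%) whose TRA or TRB was found in another cell of the library, and whose CDR3α or CDR3β nucleotides were those of an expanded clonotype, for the 3 datasets. Bars start at 0 and error bars are exact 95% binomial intervals. The shared TRA share is 12.8 and 9.43% with uveitis against 1.28% without, and the shared TRB share of dataset 1 is 36.0%.

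Few CDR3 sequences were found in more than 1 dataset. By amino acids, unexpanded cells of dataset 1 and dataset 2 had 2 CDR3α in common out of 108 and 101, dataset 1 and the dataset without uveitis had 2, and dataset 2 and that dataset had 3. This is 1.83, 0.485 and 0.778 per 10000 pairs of sequences. For CDR3β the numbers were 0, 1 and 3. By nucleotides, 1 CDR3α was in dataset 2 and in the dataset without uveitis, and no other CDR3 was shared. These counts are too small to rank the pairs of datasets.

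The shared CDR3α with the most cells was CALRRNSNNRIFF, joined from TRAV12 genes and TRAJ31, in 2 cells of dataset 1 and 1 cell without uveitis. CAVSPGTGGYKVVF was in the same numbers of cells, with TRAJ12. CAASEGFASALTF (TRAJ35) and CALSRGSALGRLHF (TRAV12D-2 with TRAJ18) were in 1 cell each of dataset 2 and without uveitis, and so were the CDR3β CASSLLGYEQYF (TRBV16 with TRBJ2-7) and a longer CDR3β of TRBV13-2 with TRBJ2-1. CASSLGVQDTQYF was in 1 cell each of dataset 1 and without uveitis. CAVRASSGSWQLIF, with TRAV9-1 or its D copy and TRAJ22, was in 1 cell of each uveitis dataset, encoded by different added bases, and in 0 cells without uveitis. Its TRA rested on only 1 UMI in dataset 1 and on 4 in dataset 2. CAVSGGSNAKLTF (TRAV9D-1 with TRAJ42), named like the next one after its values were seen, was also in 1 cell of each uveitis dataset and 0 cells without, whereas a CDR3α of TRAV9-1 with TRAJ32 was in 1 cell each of dataset 2 and without uveitis. The 2 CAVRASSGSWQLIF joints and that of a similar cell of dataset 2 are shown for this reason, with capitals as above.
Dataset 1, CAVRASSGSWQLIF: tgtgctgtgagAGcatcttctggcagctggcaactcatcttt
Dataset 2, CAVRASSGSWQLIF: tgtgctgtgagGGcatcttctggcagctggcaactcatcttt
Dataset 2, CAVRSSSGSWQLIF: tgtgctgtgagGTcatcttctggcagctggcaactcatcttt
Each of these 3 cells had a CDR3β that ended in NQDTQYF, which TRBJ2-5 encodes, with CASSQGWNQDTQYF, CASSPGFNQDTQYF and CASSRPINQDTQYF on 3 different TRBV genes. TRAJ22 with such a CDR3β end was in 1, 2 and 0 cells. This likeness was noticed after the sequences were seen, and 0 of 390 cells allows a share of up to 0.769%.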

How the data were processed

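The deposited contig tables of 3 TCR libraries were used, and the mRNA libraries were not used here. The authors assembled the contigs with Cell Ranger, on GRCm38/mm10 per the labels. The values are the deposited counts of UMIs and reads per contig, without normalization. Of several contigs of a chain in a cell, the one with the most UMIs was taken, then the most reads. The libraries held 5302, 7439 and 21408 UMIs in contigs. Gene positions were looked up by symbol in GENCODE M21 (158 of 158 genes), whose transcripts also gave the germline bases. A count of 0 was set at 3 counts only as a bound. No p-value was computed between conditions, since 1 of them has 1 library. Scripts were tested on simulated tables, where 9 of 9 values were recovered. Named were called genes and shared CDR3 (at most the 8 with the most cells of a kind), the 3 most used genes of a kind in each dataset, and fixed gene groups; all were chosen with earlier results of these data known. TRBV4, TRBV26, TRAJ22, single TRAV9 and TRBJ genes, the TRAV13 family, TRAV-TRBV pairs, single lengths and residues were named after their values were seen. Alternatives changed the UMI minimum, cells with several chains, clonotype definition, cells sharing a chain, unit counted, fold, cell minimum, gene names and the CDR3 middle. Versions were matplotlib 3.10.9, scipy 1.17.1, numpy 2.4.6, pandas 2.3.3 and Python 3.11.15.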

Additional observations from a re-analysis of the deposited data

How the results depend on the processing

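No paired analysis was possible because the group without uveitis has 1 library, so the groups share fewer than 2 replicate numbers. The TRAV9 share difference stayed positive under all 11 alternatives, from 12.5 points (cells sharing a chain left out) to 17.2, and that of the TRBJ2 cluster from 11.2 to 12.7. Against 5 called TRAV genes, there were 2 without cells sharing a chain, 3 without cells holding a CDR3 of an expanded clonotype, and 9 to 10 with only 1 uveitis dataset. TRAV9-1 was called in each of these counts. Against 3 called TRAJ genes, there were 6 with Cell Ranger clonotypes, 6 with every clonotype once, 6 at 1.5-fold, and 7 to 8 with 1 uveitis dataset. TRAJ31 was not called with only 1 TRA and 1 TRB, with at least 2 UMIs, or when cells sharing a chain or an expanded CDR3 were left out. Against 0 called TRBV genes, there was 1 with at least 2 UMIs (TRBV4), 2 at 1.5-fold and 2 with 1 uveitis dataset. Against 0 TRBJ genes, there was 1 with only 1 TRA and 1 TRB, 3 at 1.5-fold and 1 with 1 uveitis dataset. Against 0 V-J pairs, there were 2 with every clonotype once, 1 at 1.5-fold, 8 at 5 cells, and 1 to 2 with 1 uveitis dataset. The main counts were out of 23 TRAV, 30 TRAJ, 14 TRBV and 12 TRBJ genes and 9 TRBV-TRBJ pairs, with no TRAV-TRAJ pair tested. Alternatives that changed the cells, the unit or the cell minimum also changed how many were tested. Their counts are therefore not shares and cannot be ranked against the main counts. The share of cells with serine in the CDR3β middle reversed to 2.65 points higher with 3 residues removed from each end. That cut also counts a position often taken by a serine of the V gene, so it cannot decide the sign for the inner residues. Leaving out a uveitis dataset gave mean CDR3β length differences of 0.00169 to 0.408 residues and added TCRα bases of -0.146 to 0.785. The causes were not tested. Alternatives that left out cells with an expanded CDR3 or more than 1 TRB were chosen after seeing the data. With 106 to 390 cells a dataset, a feature seen in 0 cells could still have a share of up to 0.769 to 2.83%, taken as 3 counts.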
